A study of Mus musculus with 69 samples.

Results

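The genes that carry the interleukin-4 (IL-4) signal into a macrophage were followed across mouse strains, times and an Egr2 knockout. They are Il4ra, Il13ra1 and Il2rg (receptor chains), Jak1, Jak2, Jak3 and Tyk2 (Janus kinases), Stat6 (the transcription factor they activate) and Irs1 and Irs2 (docking adaptors). They were chosen by their known roles and matched by symbol, which gave 10 of the 24537 genes in each expression table and 10 of the 24527 genes in each table of F1 allele values. All values are steady-state RNA of bone marrow-derived macrophages (BMDMs), primary cells grown from marrow with M-CSF, the macrophage growth factor. RNA level says nothing directly about receptor protein or phosphorylation.

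The experiments compare macrophages of genetically distant mice before and after IL-4. BMDMs came from female mice of 8 to 12 weeks. In the first experiment, cells of 5 inbred strains, SPRET/EiJ (SPRET), PWK/PhJ (PWK), C57BL/6J (C57), BALB/cJ (BALB) and NOD/ShiLtJ (NOD), were left untreated (basal) or given 20 ng/ml IL-4 for 24 hours. This experiment has 3 libraries in each group, except basal PWK with 2. In the second, C57 and SPRET were basal or treated for 1, 6 or 24 hours, with 2 libraries in each group. In the third, Egr2 fl/fl cells (Egr2WT) and LyzM-Cre Egr2 fl/fl cells (Egr2MKO) were sampled at the same times, again with 2 libraries in each group. LyzM-Cre drives deletion in myeloid cells, and both genotypes carry the floxed alleles. The Egr2WT cells carry no Cre, so an effect of Cre itself cannot be told apart from the deletion. In the fourth, F1 cells of C57 crossed with NOD or with SPRET were basal or treated with IL-4 for 24 hours, with 2 libraries in each condition and cross. The methods of the study call the libraries biological replicates. Nothing in the labels says whether libraries of 1 group came from different animals, so the p-values measure only the spread between these libraries.

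IL-4 binds the IL-4 receptor alpha chain (Il4ra), which then pairs either with the common gamma chain (Il2rg) in the type I receptor or with Il13ra1 in the type II receptor, which also binds IL-13. The kinases attached to these chains, Jak1 with Il4ra, Jak3 with Il2rg and Tyk2 or Jak2 with Il13ra1, phosphorylate the receptor tails. STAT6 and the IRS adaptors dock there. STAT6 then enters the nucleus and activates the genes of alternative macrophage activation, while IRS proteins lead to PI3-kinase.

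The 61 libraries of the expression tables had a depth of 4.69 M to 32.9 M tags each, where M stands for 1e+06. Values were in TPM, an expression unit scaled both to transcript length and to the size of the library. Over the listed genes they summed to between 602020 and 690215 in a library, and not to 1e+06. In SPRET of the 5 strains the sum was 686422 to 690215 at baseline and 654764 to 657584 after IL-4. The part of these sums in the changes below was not tested. The summed TPM of 6 macrophage markers (Adgre1, Csf1r, Cd68, Itgam, Mertk and Lyz2) lay between 9308 and 53701, whereas T and NK cell, B cell, dendritic cell and fibroblast marker lists each summed to no more than 7.83 TPM in any library. The lowest macrophage sums were those of PWK, at 9594 to 9713 TPM at baseline and 9308 to 9610 TPM after IL-4. Basal C57 of the 5 strains stood at 23165 to 23879 TPM. The part of this in the PWK differences was not tested. A list of 6 neutrophil and progenitor genes ranged from 6.69 to 591 TPM and is given beside the results below, with no test of a link. In the check of the targeted gene, Egr2 stood at 23.6 and 21.3 TPM in basal Egr2WT and at 0.859 and 0.854 TPM in basal Egr2MKO, and it was lower in Egr2MKO at every time, by log2 differences of -3.66 to -4.18. As the samples are bulk cultures, fewer cells of a type and less RNA per cell cannot be told apart.

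Positions are for mm10. Il4ra lies on chromosome 7 (125552282 to 125579474, plus strand), Il13ra1 on the X chromosome (36112108 to 36171261, plus), and Il2rg also on the X chromosome (101264385 to 101268255, minus). Jak1 is on chromosome 4 (101151974 to 101265282, minus), Jak2 on chromosome 19 (29251803 to 29313080, plus), Jak3 on chromosome 8 (71676383 to 71690577, plus) and Tyk2 on chromosome 9 (21104068 to 21131275, minus). Stat6 is on chromosome 10 (127642986 to 127660987, plus), Irs1 on chromosome 1 (82233105 to 82291439, minus) and Irs2 on chromosome 8 (10986964 to 11008430, minus). An exon of 8 of the 10 genes overlaps an exon of another annotated gene, on the opposite strand for 6 (as Stat6 with Nab2 and Jak1 with Raver2) and on the same strand for 2 (Il2rg with Gm20489 and Jak3 with Insl3). Whether the counting used strand is not given in the sources used here, so reads of such pairs could be shared. Jak2 and Il13ra1 have no such overlap.

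The promoters of Il4ra, Il13ra1 and Jak2 are shown, since these 3 genes carried the changes in Egr2MKO described below. Each run is the 250 bases before the start of the gene in RefSeq (GRCm38.p6), 5′ to 3′ on the strand of the gene, and capitals mark a match to the letters GCGNGGGCG, a core of the motif bound by EGR factors.
Il4ra, chr7:125552021-125552270, plus strand: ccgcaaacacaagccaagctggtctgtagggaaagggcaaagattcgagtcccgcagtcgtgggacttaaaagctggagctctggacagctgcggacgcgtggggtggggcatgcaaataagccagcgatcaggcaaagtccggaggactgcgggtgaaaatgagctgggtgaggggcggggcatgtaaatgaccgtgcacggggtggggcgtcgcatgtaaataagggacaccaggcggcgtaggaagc
Il13ra1, chrX:36111858-36112107, plus strand: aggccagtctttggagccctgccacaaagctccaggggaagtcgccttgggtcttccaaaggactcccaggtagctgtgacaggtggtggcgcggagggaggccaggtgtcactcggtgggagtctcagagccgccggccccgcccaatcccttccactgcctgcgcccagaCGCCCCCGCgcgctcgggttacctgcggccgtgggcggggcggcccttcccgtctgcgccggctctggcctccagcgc
Jak2, chr19:29251553-29251802, plus strand: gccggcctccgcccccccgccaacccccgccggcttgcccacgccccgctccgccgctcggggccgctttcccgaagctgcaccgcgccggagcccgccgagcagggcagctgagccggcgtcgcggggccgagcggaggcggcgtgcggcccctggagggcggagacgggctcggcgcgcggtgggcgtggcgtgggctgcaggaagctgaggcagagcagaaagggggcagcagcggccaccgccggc

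All 10 genes had a promoter in RefSeq, and windows of 300 bases, with 50 bases after the start, were searched on both strands. GCGNGGGCG was found in 1 of the 10 windows, that of Il13ra1, on the minus strand from 78 to 70 bases before the start, against 5.55% of 32851 promoters. The STAT6 letters TTCNNNNGAA were in none of the 10 windows against 6.95% of all promoters, and the general STAT letters TTCNNNGAA were in none against 8.3%. These shares describe the windows only and say nothing of binding elsewhere.

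Under basal conditions the signalling genes differed widely between the 5 strains, and SPRET and NOD stood at opposite ends for several. In C57, Il2rg was the most abundant of the 10 per transcript length, at 246 TPM, followed by Stat6 (53.9), Jak1 (38.0), Il4ra (35.2), Jak2 (27.2), Tyk2 (16.7), Jak3 (9.67) and Il13ra1 (7.71). In this experiment Irs2 reached no more than 0.575 TPM and Irs1 no more than 0.023 TPM, both under the filter of at least 1 TPM in 2 libraries, so 8 of the 10 genes could be tested.

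Il4ra, the chain that binds IL-4, was highest in SPRET and lowest in BALB. Its basal values were 33.2, 38.8 and 33.6 TPM in C57, 19.5, 18.2 and 18.2 TPM in BALB, 20.9, 23.3 and 23.7 TPM in NOD, 31.8 and 34.2 TPM in PWK, and 76.2, 79.0 and 80.9 TPM in SPRET. All SPRET libraries were above all others, all BALB and NOD libraries were below all C57 and PWK libraries, and C57 and PWK overlapped. Relative to C57, Il4ra was higher in SPRET by 1.14 ± 0.06 on the log2 scale (standard error (SE), adjusted p = 5.0e-15 by limma across 11907 genes) and lower in BALB (-0.88, adjusted p = 4.9e-12) and NOD (-0.61, adjusted p = 9.9e-10). The PWK difference of -0.09 did not pass (adjusted p = 0.25). When libraries were rescaled by the median ratio of their genes, which moves the median of all genes by 0.30 in basal NOD against C57 and by 0.16 in PWK, the NOD difference shrank to -0.23 (adjusted p = 9.3e-04), and with quantile normalization it was -0.40 (adjusted p = 5.0e-07).

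Il13ra1, the chain of the type II receptor, followed another order. It was between 7.33 and 7.97 TPM in C57, 6.82 and 8.28 TPM in BALB, 2.98 and 3.49 TPM in NOD, 3.14 and 3.46 TPM in PWK, and 11.4 and 12.5 TPM in SPRET. C57 and BALB overlapped, and so did NOD and PWK at the low end. Against C57 it was lower by a log2 difference of -1.06 in NOD (adjusted p = 9.8e-10) and -1.02 in PWK (adjusted p = 2.2e-08), and higher in SPRET by 0.56 (adjusted p = 2.4e-05, all limma). Il2rg, the gamma chain shared with several interleukin receptors, was lower than C57 in SPRET (-0.61, adjusted p = 5.0e-11), PWK (-0.51, adjusted p = 2.0e-08) and NOD (-0.27, adjusted p = 3.2e-05). The order of Il2rg across strains therefore differed from that of Il4ra. Under median-ratio scaling the NOD value turned to 0.13 (adjusted p = 0.0061), the PWK value shrank to -0.30 and the BALB value passed at -0.10. Quantile normalization gave -0.17 for Il2rg and -0.70 for Il13ra1 in NOD. The lower Il2rg level of SPRET was not seen in the time course described below. Its basal means there were 286 TPM in C57 and 305 TPM in SPRET (C57 minus SPRET -0.09, adjusted p = 0.07, limma).

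Among the kinases, Jak1, which serves both receptor types, passed in none of the 4 basal comparisons on the deposited scale, with limma log2 differences between -0.04 and 0.12 (none at an unadjusted p under 0.05 either), 95% intervals within -0.22 and 0.28, and strain means between 36.8 and 41.5 TPM. Under median-ratio scaling it passed as higher than C57 in PWK, where the value turned to 0.16 (adjusted p = 0.026), and in NOD (0.43, adjusted p = 1.2e-07), and with quantile normalization in NOD (0.19, adjusted p = 0.012). Jak2 was 27.2, 28.1 and 26.4 TPM in C57 and 64.4, 63.6 and 63.9 TPM in SPRET, with no overlap, a log2 difference of 1.20 (adjusted p = 1.9e-11). It was also higher than C57 in BALB (0.39, adjusted p = 0.0012) and PWK (0.39, adjusted p = 0.0021), and lower in NOD (-0.32, adjusted p = 0.0036), although the NOD value became 0.07 with median-ratio scaling and -0.10 with quantile normalization, neither of which passed. The PWK value grew to 0.59 under median-ratio scaling.

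Jak3, the kinase of the gamma chain, showed the widest range of the 8 genes, 2.46 on the log2 scale between the 10 group means. It was 24.6, 24.9 and 25.2 TPM in basal SPRET, a mean of 9.67 TPM in C57 and a mean of 3.72 TPM in NOD. On the log2 scale SPRET was above C57 by 1.29 (adjusted p = 1.4e-10, limma) and NOD differed from it by -1.18 (adjusted p = 7.8e-10), with PWK between them at -0.58 (adjusted p = 2.6e-04; -0.37 with quantile normalization). Tyk2, a kinase of the type II receptor, was lowest in PWK, at a mean of 7.74 TPM against 16.7 TPM in C57 (ratio of means 0.465, adjusted p = 4.6e-09, limma). Its smaller basal differences in NOD (-0.23, adjusted p = 0.026) and SPRET (-0.24, adjusted p = 0.018) were -0.08 and -0.10, and no longer passed, without basal C57 replicate 2. The NOD call was also lost without NOD replicate 1 (-0.22) or 2 (-0.20), and it turned to 0.15 and 0.05 under median-ratio and quantile scaling, while the SPRET call was lost without SPRET replicate 3 (-0.22). In BALB, where the Tyk2 difference of 0.06 did not pass, it did without basal C57 replicate 2 (0.21). The NOD and SPRET calls were also lost in a model of only the groups compared (adjusted p = 0.19 and 0.16). In the time course described below, basal Tyk2 differed in the opposite direction. It was 29.3 and 29.6 TPM in C57 and 42.6 and 42.1 TPM in SPRET (C57 minus SPRET -0.51, adjusted p = 7.1e-06, limma).

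Stat6 was lowest in NOD. Its basal values were 53.3, 59.0 and 49.2 TPM in C57 and 21.6, 22.0 and 21.1 TPM in NOD, with no overlap, a log2 difference of -1.28 ± 0.06 (SE, adjusted p = 5.8e-15 by limma). It was also lower in PWK (-0.36, adjusted p = 1.5e-04) and BALB (-0.26, adjusted p = 0.0022) and higher in SPRET (0.26, adjusted p = 9.3e-04). The PWK value was -0.16 under median-ratio scaling, and the BALB call was lost in a model of only the groups compared (adjusted p = 0.064).

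Counted over the 8 tested genes, basal BALB differed from C57 for 3, NOD for 7, PWK for 6 and SPRET for 7. The shares of all genes tested were 43.2%, 74.2%, 61.3% and 68.4%, so differences between strains were common across the transcriptome. The median log2 difference of the 8 genes was 0.02 (BALB), -0.47 (NOD), -0.43 (PWK) and 0.41 (SPRET), beside -0.30 for all genes in NOD and -0.16 in PWK. The neutrophil and progenitor genes summed to between 107 and 131 TPM in basal C57, 52.8 and 59.7 TPM in BALB, 40.6 and 51.8 TPM in NOD, 534 and 540 TPM in PWK, and 334 and 395 TPM in SPRET. After IL-4 they stood at 16.6 to 24.7 TPM in C57, 17.9 to 19.8 TPM in BALB, 15.1 to 19.1 TPM in NOD, 538 to 591 TPM in PWK, and 244 to 271 TPM in SPRET. They were thus highest in PWK and SPRET, and their part in the differences between strains or with IL-4 was not tested.

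**Figure D1:**
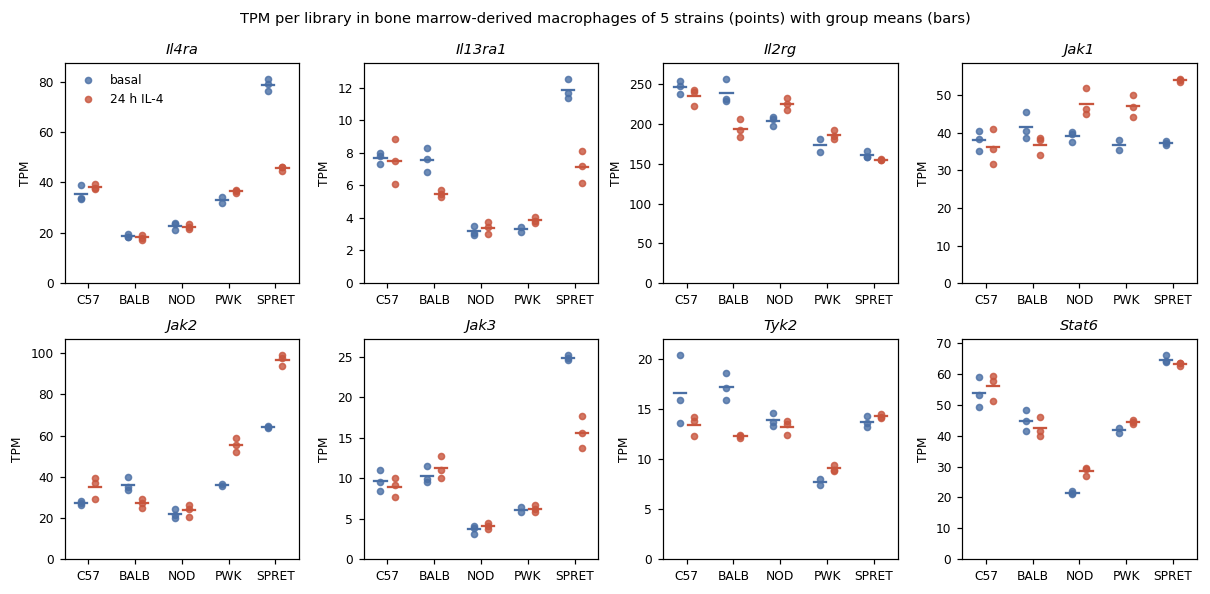
TPM of the signalling genes in each library of the 5 strains, basal and after 24 hours of IL-4, on a separate linear axis for each gene. Points are libraries and bars are group means. Basal SPRET stands above the other strains for Il4ra (76.2 to 80.9 TPM), Jak2 and Jak3, and basal NOD below them for Stat6 (21.1 to 22.0 TPM).

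After 24 hours of IL-4 the changes were below 2-fold for every tested gene in every strain, and no gene passed in the same direction in all 5. The shares of all genes that passed with a change over 2-fold were 3.80% (C57), 2.08% (BALB), 1.19% (NOD), 2.08% (PWK) and 3.94% (SPRET). The genes that rose were Jak2 in C57, Il2rg, Jak1 and Stat6 in NOD, and Jak1 and Jak2 in PWK and SPRET. Those that fell were Tyk2 in C57, Il13ra1, Il2rg, Jak2 and Tyk2 in BALB, and Il4ra, Il13ra1 and Jak3 in SPRET. Of the 8 genes, C57 had 2 that changed (35.5% of all genes tested), BALB 4 (34.2%), NOD 3 (34.3%), PWK 2 (24.7%) and SPRET 5 (44.4%). The median change of the 8 genes was -0.06, -0.23, 0.11, 0.16 and -0.04 on the log2 scale, beside -0.04, -0.11, 0.12, 0.08 and 0.11 for all genes. The response differed from that of C57 for 2 of 8 genes in BALB (15.8% of all genes), while NOD had 3 (33.3%), PWK 2 (22.4%) and SPRET 5 (33.4%), all against the same C57 libraries.

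The largest change among these genes was the fall of Il4ra in SPRET. Its treated values there were 46.2, 44.5 and 46.2 TPM, all below the basal values of 76.2 to 80.9 TPM, a log2 change of -0.77 ± 0.06 (SE, adjusted p = 4.8e-11 by limma). In C57 the treated values were 37.5, 39.3 and 37.9 TPM, which overlapped the basal range (log2 change 0.12, adjusted p = 0.12), although the change passed without basal C57 replicate 2 (0.19) and under median-ratio (0.17) and quantile (0.16) scaling. The changes in BALB (-0.04), NOD (-0.02) and PWK (0.14) did not pass either, except NOD under median-ratio scaling (-0.20, adjusted p = 0.012). The NOD response differed from that of C57 by -0.14 (adjusted p = 0.21), but passed under median-ratio (-0.36) and quantile (-0.30) scaling. The BALB response differed from that of C57 only without basal C57 replicate 2 (-0.23, against -0.16 with all libraries). The difference of the SPRET response from the C57 response was -0.89 (95% interval -1.06 to -0.72, adjusted p = 6.4e-09). After IL-4, SPRET still had the highest Il4ra level of the 5 strains.

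Il13ra1 fell in SPRET as well, from 11.4, 12.5 and 11.7 TPM to 6.15, 8.09 and 7.21 TPM (log2 change -0.66 ± 0.10, SE, adjusted p = 6.7e-06). It fell in BALB from between 6.82 and 8.28 TPM to 5.71, 5.45 and 5.29 TPM (-0.40, adjusted p = 0.0034 by limma), and the groups did not overlap in either strain. The SPRET response differed from that of C57 by -0.62 (adjusted p = 0.0016), whereas the difference for BALB, -0.35, did not pass (adjusted p = 0.098) except without treated C57 replicate 3 (-0.47). Il2rg fell in BALB (-0.30, adjusted p = 3.8e-05; -0.16 under median-ratio scaling). Its change in SPRET, -0.05, passed under median-ratio (-0.19) and quantile (-0.20) scaling, and that in C57 with quantile normalization (-0.13). It passed as higher in NOD (0.14, adjusted p = 0.026), but that call was lost without any 1 of 3 of the 6 NOD libraries (basal replicate 2, IL-4 replicates 1 and 3, 0.12 to 0.14), and it turned to -0.04 under median-ratio scaling and was lost with quantile normalization (0.12). The PWK response of Il2rg did not pass, but did without basal PWK replicate 1 (0.24) and with a replicate block (0.19).

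Jak2 changed in opposite directions. In C57 it went from 27.2, 28.1 and 26.4 TPM to 39.5, 36.8 and 29.2 TPM, a rise of 0.35 ± 0.09 on the log2 scale (SE, adjusted p = 0.0046, limma) that was lost in a model of only the groups compared (adjusted p = 0.083). In BALB it went from 39.7, 33.5 and 35.2 TPM to 29.2, 24.7 and 27.3 TPM, a fall of -0.41 ± 0.09 (adjusted p = 0.0015), or -0.27 under median-ratio scaling. Neither strain's basal and treated values overlapped, and the difference between the 2 responses was -0.75 (95% interval -1.02 to -0.48, adjusted p = 2.4e-04). Jak2 also rose in PWK, to 55.3, 58.9 and 51.8 TPM (0.60, adjusted p = 8.5e-05), and in SPRET, to 93.5, 97.6 and 98.9 TPM (0.59, adjusted p = 1.2e-05). The NOD change of 0.12 did not pass (adjusted p = 0.36), and the responses of PWK, SPRET and NOD differed from that of C57 by 0.26, 0.24 and -0.23, none past the threshold (95% intervals within -0.50 and 0.54). The last passed without treated C57 replicate 3 (-0.36) and under median-ratio (-0.46) and quantile (-0.39) scaling.

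Jak1 rose in SPRET from 36.8, 37.8 and 37.3 TPM to 53.6, 54.1 and 54.3 TPM (0.52, adjusted p = 4.9e-06, limma). It also rose in PWK (0.35, adjusted p = 0.0041) and NOD (0.28, adjusted p = 0.0075), and these calls were lost without basal PWK replicate 2 (0.29) and treated NOD replicate 1 (0.22). Median-ratio scaling brought the NOD rise down to 0.10 (adjusted p = 0.2), where it did not pass, and the PWK rise to 0.22. The Jak1 response differed from C57 in SPRET by 0.60 (adjusted p = 1.5e-04), in PWK by 0.42 (adjusted p = 0.011, lost at 0.37 without basal PWK replicate 2, and 0.25 under median-ratio scaling) and in NOD by 0.35 (adjusted p = 0.016, lost at 0.27 without treated C57 replicate 3 and at 0.29 without treated NOD replicate 1). The NOD difference was 0.12 under median-ratio scaling (adjusted p = 0.25) and 0.22 with quantile normalization (adjusted p = 0.078), and in a model of only the groups compared neither the NOD (adjusted p = 0.07) nor the PWK difference (adjusted p = 0.068) passed.

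Jak3 fell in SPRET from between 24.6 and 25.2 TPM to 17.7, 15.5 and 13.8 TPM (log2 change -0.64 ± 0.11, SE, adjusted p = 3.5e-05 by limma). Its response there differed from that of C57 by -0.54 (adjusted p = 0.0089). Tyk2 fell in BALB (-0.45, adjusted p = 3.6e-04) and in C57 (-0.27, adjusted p = 0.02), the latter no longer passing in a model of only the groups compared (adjusted p = 0.26), or without basal C57 replicate 2 (-0.12) or treated C57 replicate 3 (-0.21). In NOD, Tyk2 passed as lower under median-ratio scaling (-0.24). The response of Tyk2 differed from that of C57 in BALB only without basal C57 replicate 2 (-0.33) and in NOD only without basal C57 replicate 3 (0.33). Stat6 rose in NOD from 21.6, 22.0 and 21.1 TPM to 29.4, 27.0 and 29.4 TPM, with no overlap (0.39 ± 0.06, SE, adjusted p = 5.6e-05; 0.21 and 0.26 under median-ratio and quantile scaling). It remained below all treated C57 libraries (59.2, 57.6 and 51.2 TPM). The NOD response of Stat6 differed from C57 by 0.33 (adjusted p = 0.0074), but by 0.10 and 0.19 under median-ratio and quantile scaling, where it did not pass. No Stat6 change passed in the other 4 strains, but that in SPRET did under both scalings (each -0.17), as did the difference of its response from C57 (-0.28 and -0.24).

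**Figure D2:**
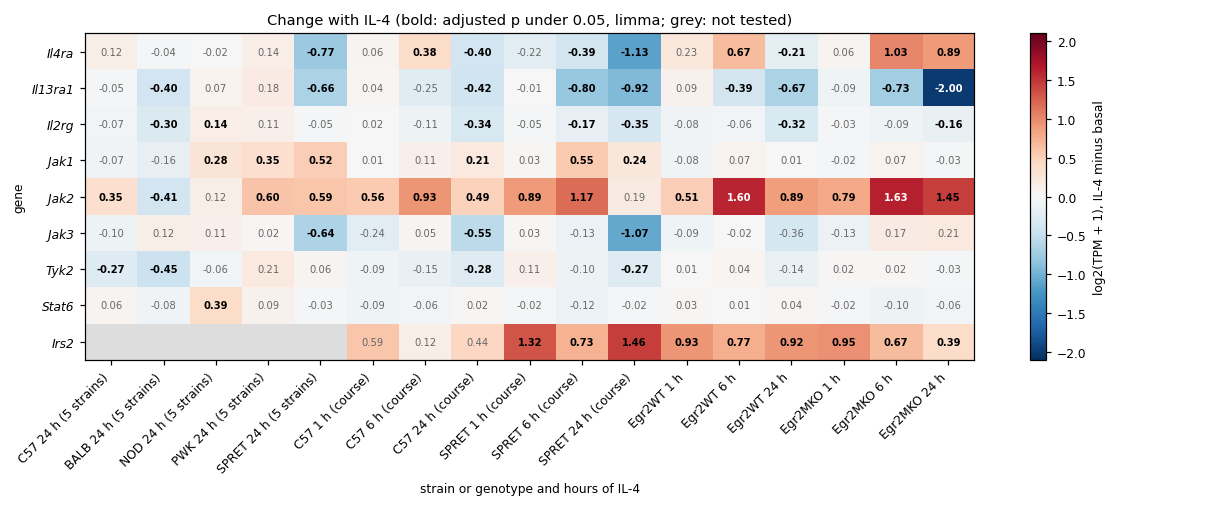
Log2 change of TPM + 1 after IL-4 for each tested signalling gene in the 5 strains, the time course and the Egr2 experiment, as colour and printed value, with bold print for adjusted p under 0.05 and grey cells where Irs2 was not tested. Il4ra reads -0.77 in SPRET after 24 hours and 0.89 in Egr2MKO after 24 hours, and Jak2 is positive in all time-course and Egr2 columns.

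The time course of C57 and SPRET asked when these changes arise. Levels of the separate tables were normalized separately and are set side by side only. Il4ra in C57 was 32.1 and 34.3 TPM at baseline, 35.4 and 33.8 TPM at 1 hour, 44.4 and 42.5 TPM at 6 hours, and 26.4 and 23.5 TPM at 24 hours. It first rose and then fell below baseline, with log2 changes of 0.06 (adjusted p = 0.83), 0.38 (adjusted p = 0.0023) and -0.40 (adjusted p = 7.7e-04, limma across 12088 genes). In SPRET it was 34.2 and 35.9 TPM at baseline, 30.8 and 29.1 TPM at 1 hour, 25.4 and 27.7 TPM at 6 hours, and 15.8 and 15.1 TPM at 24 hours. No rise was seen in SPRET, where the changes were -0.22 (adjusted p = 0.092), -0.39 (adjusted p = 0.0012) and -1.13 (adjusted p = 1.0e-07). The responses of the 2 strains differed by -0.76 at 6 hours (95% interval -0.99 to -0.54, adjusted p = 3.5e-04) and by -0.73 at 24 hours (95% interval -0.95 to -0.51, adjusted p = 1.8e-04).

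The basal Il4ra level of SPRET was 78.7 TPM in the 5-strain experiment and 35.0 TPM in the time course, with C57 at 35.2 and 33.2 TPM. The basal SPRET minus C57 difference was 1.14 in the former and 0.07 in the latter (adjusted p = 0.39). The fall after 24 hours of IL-4 in SPRET was found in both. C57 at 24 hours was 0.12 and did not pass in the 5-strain experiment but fell by 0.40 in the time course. The neutrophil and progenitor genes (Ly6g, S100a8, S100a9, Mpo, Elane and Cd34) summed to between 334 and 395 TPM in basal SPRET of the 5-strain experiment and between 59.3 and 65.3 TPM in that of the time course. In basal C57 they summed to between 107 and 131 TPM and between 67.0 and 94.2 TPM, and treated C57 stood at 16.6 to 24.7 TPM and 6.69 to 8.28 TPM. Mast cell and basophil genes summed to between 4.91 and 9.20 TPM in SPRET of the 5 strains and between 10.8 and 22.2 TPM in SPRET of the time course. The macrophage markers in basal SPRET summed to between 27129 and 27855 TPM in the 5-strain experiment and between 51125 and 53701 TPM in the time course. The part of these markers in the Il4ra values was not tested. Basal C57 means of some other signalling genes also differed between the experiments, as Jak1 (38.0 and 79.7 TPM) and Stat6 (53.9 and 102 TPM), while Jak2 stayed close (27.2 and 27.1 TPM).

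Il13ra1 was higher in SPRET than in C57 at baseline in the time course (23.1 and 24.0 against 11.8 and 11.8 TPM, log2 difference 0.93, adjusted p = 9.8e-07, limma). After 1 hour it was 22.8 and 23.8 TPM in SPRET, close to baseline, and after 6 hours it was 12.9 and 13.3 TPM. The fall in SPRET at 6 hours was -0.80 on the log2 scale (adjusted p = 1.4e-05) and at 24 hours -0.92 (adjusted p = 3.2e-06). In C57 the 6-hour change of -0.25 did not pass (adjusted p = 0.054; it did without C57 6 h replicate 2, -0.39, and under median-ratio and quantile scaling, -0.28 and -0.26) and the 24-hour change was -0.42 (adjusted p = 0.0018). The responses differed by -0.55 at 6 hours (adjusted p = 0.012, lost at adjusted p = 0.069 in a model of only the groups compared) and by -0.50 at 24 hours (adjusted p = 0.0082). Il2rg fell at 24 hours in both strains, by 0.34 in C57 (adjusted p = 3.3e-05) and by 0.35 in SPRET (adjusted p = 2.9e-05). It had also fallen in SPRET at 6 hours by 0.17 (adjusted p = 0.0073), which did not pass without SPRET 6 h replicate 1 (-0.15) or in a model of only the groups compared (adjusted p = 0.053). In C57 the 6-hour change of Il2rg passed under median-ratio (-0.13) and quantile (-0.17) scaling.

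Jak2 was the earliest of the kinases to move. In C57 it was 26.1 and 28.1 TPM at baseline, 41.0 and 39.6 TPM at 1 hour, 50.6 and 54.6 TPM at 6 hours, and 37.4 and 39.2 TPM at 24 hours. In SPRET it was 78.7 and 93.4, 163 and 157, 192 and 196, and 100.4 and 95.9 TPM at the same times. Both strains peaked at 6 hours, with SPRET above C57 throughout. The log2 changes in C57 were 0.56, 0.93 and 0.49 (adjusted p = 5.3e-04, 2.1e-06 and 2.3e-04, limma) and in SPRET 0.89, 1.17 and 0.19 (adjusted p = 3.6e-06, 1.3e-07 and 0.061), so the last change in SPRET did not pass, although it did without basal SPRET replicate 2 (0.31) and under median-ratio (0.26) and quantile (0.25) scaling. Basal SPRET exceeded basal C57 by 1.63 (adjusted p = 1.4e-09). None of the 3 differences between the responses passed (0.34, 0.24 and -0.29), and each passed when a basal SPRET library was left out: without replicate 2, the first read 0.46 and the second 0.36, and without replicate 1 the last read -0.42.

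Jak3 fell at 24 hours in both strains, from 11.7 and 11.1 TPM to 8.30 and 6.67 TPM in C57 (-0.55, adjusted p = 0.0056) and from 22.9 and 20.5 TPM to 11.5 and 8.34 TPM in SPRET (-1.07, adjusted p = 4.3e-05, limma). The C57 call was lost without C57 24 h replicate 2 (-0.41). The difference between the falls, -0.52, did not pass (95% interval -0.93 to -0.10, adjusted p = 0.059) but did without C57 24 h replicate 2 (-0.66) or SPRET 24 h replicate 1 (-0.73), and with a pseudocount of 5 TPM (-0.45). Jak1 rose in SPRET at 6 hours from a mean of 86.1 to 126 TPM (0.55, adjusted p = 1.6e-05), and its response differed there from C57 by 0.44 (adjusted p = 0.0048). Its 24-hour changes passed at 0.21 in C57 (adjusted p = 0.015) and 0.24 in SPRET (adjusted p = 0.0076), and were lost without any 1 of 3 of the 4 libraries in C57 (0.17 to 0.21; basal replicates 1 and 2 and 24 h replicate 2) and without basal or 24 h replicate 1 in SPRET (both 0.21). Tyk2 fell at 24 hours in both, by 0.28 in C57 (adjusted p = 0.0022) and by 0.27 in SPRET (adjusted p = 0.0025, lost at adjusted p = 0.072 in a model of only the groups compared). The 6-hour change of Tyk2 in C57 passed with quantile normalization (-0.20). The 24-hour responses of Jak1 and Tyk2 did not differ past the threshold between SPRET and C57 here, unlike in the 5-strain experiment.

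Stat6 did not pass at any time in either strain, with changes between -0.12 and 0.02 on the log2 scale and means between 95.5 and 130 TPM. The SPRET change at 6 hours passed without basal SPRET replicate 1 (-0.19) and under median-ratio (-0.17) and quantile (-0.19) scaling. Its basal level was higher in SPRET than in C57 by 0.34 (adjusted p = 1.6e-04, limma). Irs2, the adaptor of the PI3-kinase branch, could be tested here. It was 4.01 and 5.44 TPM in basal C57 and 0.91 and 1.87 TPM in basal SPRET, and at 24 hours 6.65 and 6.73 TPM in C57 and 5.27 and 5.60 TPM in SPRET. It was lower in SPRET at baseline (-1.28, adjusted p = 5.9e-05) and rose there at 1 hour (1.32, adjusted p = 3.6e-04), 6 hours (0.73, adjusted p = 0.0088) and 24 hours (1.46, adjusted p = 4.4e-05). The 6-hour call was lost without basal SPRET replicate 1 (0.44) or SPRET 6 h replicate 2 (0.63), and in a model of only the groups compared both the 1-hour and the 6-hour rise were lost (each adjusted p = 0.15). In C57 none of the 3 changes passed (0.59, 0.12 and 0.44, adjusted p = 0.13, 0.7 and 0.079), and the last passed without basal C57 replicate 2 (0.62), with a replicate block (0.44, adjusted p = 0.035) and with a pseudocount of 5 TPM (0.27), as did the first with that pseudocount (0.37). The responses differed at 24 hours by 1.02 (adjusted p = 0.011), and at 1 and 6 hours only without basal SPRET replicate 2 (1.03 and 0.90, against 0.73 and 0.61 with all libraries). Irs1 stayed at or below 0.065 TPM in every library of every experiment and was not tested.

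Of the 9 genes tested in C57, 1 changed at 1 hour, 2 at 6 hours and 7 at 24 hours, against 3.95%, 20.4% and 39.4% of all genes. In SPRET 2, 6 and 7 changed, against 8.75%, 30.6% and 36.6%. At baseline 6 of 9 differed between the strains (60.7% of all genes). The response at 1 hour differed for 0 of 9 by limma (4 at an unadjusted p under 0.05; 2.32% of all genes), and at 6 and 24 hours for 3 of 9 each (11.1% and 28.9% of all genes). These comparisons share the basal libraries.

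**Figure D3:**
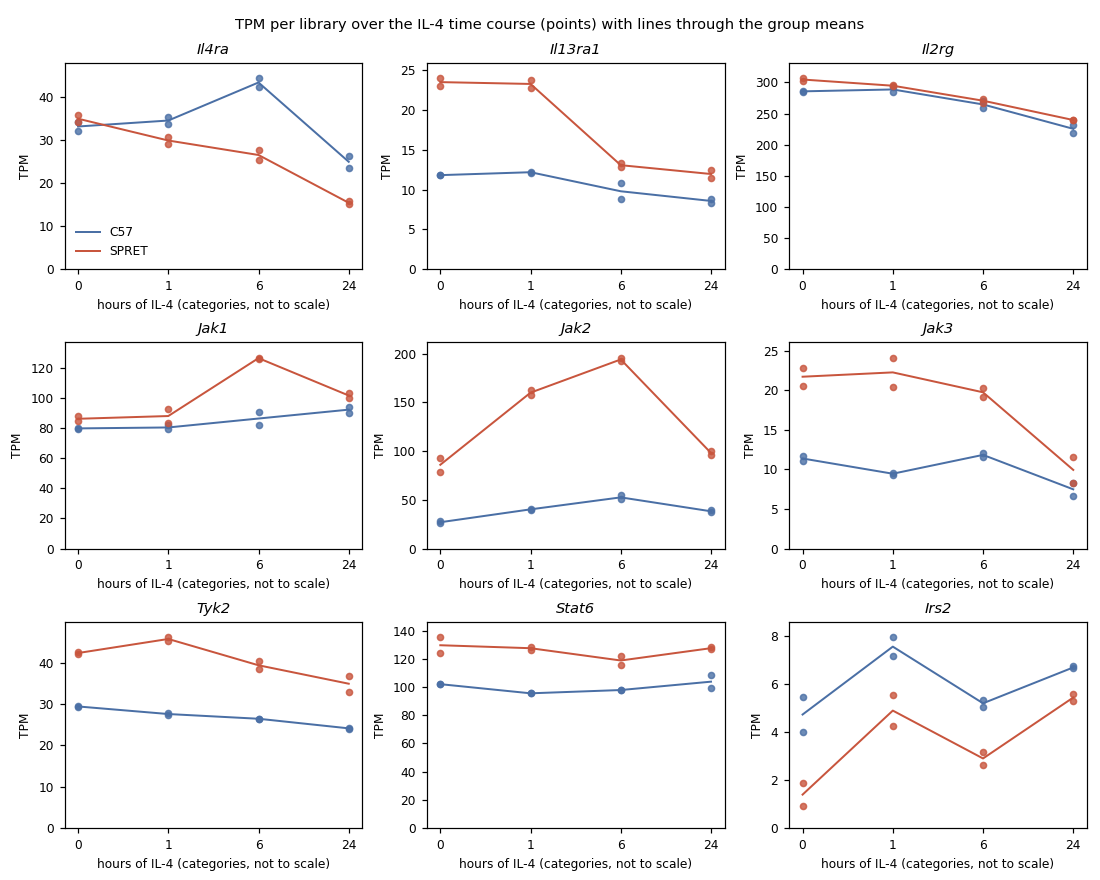
TPM of the signalling genes in each C57 and SPRET library at 0, 1, 6 and 24 hours of IL-4, with lines through the means of 2 libraries. Jak2 peaks at 6 hours in both strains, at 192 and 196 TPM in SPRET, and Il4ra rises at 6 hours in C57 (44.4 and 42.5 TPM) but not in SPRET (25.4 and 27.7 TPM).

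In the Egr2 experiment the receptor chains moved apart after 24 hours. Egr2 encodes a transcription factor that IL-4 induces in macrophages. At baseline only 1 of the 9 tested genes differed between Egr2MKO and Egr2WT (11.5% of all genes), which was Stat6 (0.20, adjusted p = 0.0095, limma across 12079 genes). That call was lost without basal Egr2WT replicate 2 (0.18) or basal Egr2MKO replicate 1 (0.19), and in a model of only the groups compared (adjusted p = 0.062). At 1 and 6 hours 3 genes differed each (11.4% and 20.6%), and at 24 hours 7 of 9 did (37.4% of all genes), which were Il4ra, Il2rg, Jak2 and Jak3 (higher in Egr2MKO) and Il13ra1, Jak1 and Irs2 (lower). The median difference at 24 hours was 0.15 for the 9 genes and 0.12 for all genes.

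Il4ra was 33.5 and 33.1 TPM in basal Egr2WT and 36.9 and 35.0 TPM in basal Egr2MKO. At 1 hour it was 39.6 and 38.7 TPM and 37.6 and 37.5 TPM, and at 6 hours 53.2 and 54.1 TPM and 71.9 and 77.5 TPM. At 24 hours Egr2WT had gone back to 30.0 and 27.5 TPM, while Egr2MKO stood at 69.0 and 66.2 TPM. Both genotypes thus rose by 6 hours, and the level in Egr2MKO was still up at 24 hours. The log2 changes from baseline at 6 and 24 hours were 0.67 (adjusted p = 3.0e-06) and -0.21 (adjusted p = 0.015) in Egr2WT, and 1.03 (adjusted p = 5.1e-08) and 0.89 (adjusted p = 1.2e-07) in Egr2MKO, by limma with an SE of 0.06. The fall in Egr2WT was lost without basal replicate 1 (-0.20), basal replicate 2 (-0.21) or 24 h replicate 2 (-0.14), with median-ratio scaling (-0.14), and in a model of only the groups compared (adjusted p = 0.088). At 1 hour the change in Egr2WT, 0.23, passed only with a pseudocount of 0.1 TPM (adjusted p = 0.049) or with no filter (adjusted p = 0.046). Il4ra was higher in Egr2MKO at 6 hours by 0.47 (adjusted p = 1.1e-04, lost at adjusted p = 0.063 in a model of only the groups compared) and at 24 hours by 1.21 (adjusted p = 1.3e-08). The responses of the genotypes differed at 24 hours by 1.10 (95% interval 0.93 to 1.27, adjusted p = 6.3e-06). At 6 hours the difference was 0.36 (95% interval 0.19 to 0.53, adjusted p = 0.058) and passed without Egr2MKO 6 h replicate 1 (0.41) and with a pseudocount of 5 TPM (0.34).

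Il13ra1 went the other way. It was 13.8 and 15.4 TPM in basal Egr2WT and 14.5 and 13.4 TPM in basal Egr2MKO. At 6 hours it was 11.3 and 10.7 TPM in Egr2WT and 6.96 and 9.17 TPM in Egr2MKO, and at 24 hours 9.16 and 8.45 TPM against 2.94 and 2.52 TPM. The groups overlapped at baseline and were apart at 6 and 24 hours. Its fall at 24 hours was -0.67 in Egr2WT (adjusted p = 9.7e-04) and -2.00 ± 0.12 in Egr2MKO (SE, adjusted p = 7.8e-08, limma). The responses differed by -1.33 (95% interval -1.70 to -0.96, adjusted p = 2.9e-04), and the 24-hour level was lower in Egr2MKO by -1.39 (adjusted p = 2.4e-06). The promoter of Il13ra1 was the one that held the EGR letters in capitals above, and no test linked that match to these values. Weaker calls at 6 hours, -0.39 in Egr2WT (adjusted p = 0.033) and -0.41 between the genotypes (adjusted p = 0.03), were lost without any 1 of the 4 and any 1 of 3 of the 4 libraries, respectively (-0.46 to -0.31, and -0.45 to -0.23 without either Egr2WT 6 h library or Egr2MKO 6 h replicate 1). Both were also lost in a model of only the groups compared (adjusted p = 0.088 and 0.3), the former with no filter (adjusted p = 0.053) and with a replicate block (adjusted p = 0.055). The 6-hour fall in Egr2MKO, -0.73 (adjusted p = 5.9e-04), was lost in that model too (adjusted p = 0.06).

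Il2rg was 267 TPM on average in Egr2WT and 328 TPM in Egr2MKO at 24 hours (0.30, adjusted p = 6.0e-04, limma; 0.16 under median-ratio scaling). It fell from baseline by 0.32 in Egr2WT (adjusted p = 3.8e-04), and by 0.16 in Egr2MKO (adjusted p = 0.034), where the call was lost without any 1 of the 4 libraries (-0.18 to -0.13), with no filter (adjusted p = 0.054) and with a replicate block (adjusted p = 0.059). At 6 hours the Egr2MKO change passed under median-ratio scaling (-0.17). At 1 hour a difference between the genotypes of 0.18 passed (adjusted p = 0.033) but was lost without Egr2WT 1 h replicate 2 or either Egr2MKO 1 h library (0.14 to 0.20), with no filter (adjusted p = 0.054) and in a model of only the groups compared (adjusted p = 0.07). The 6-hour difference passed only without Egr2WT 6 h replicate 2 (0.19).

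Jak2 rose at every time in both genotypes. It was 23.7 and 24.8 TPM in basal Egr2WT and 28.4 and 27.5 TPM in basal Egr2MKO, and reached 72.5 and 78.4 TPM against 94.9 and 83.0 TPM at 6 hours. At 24 hours it was 45.4 and 45.9 TPM in Egr2WT and 77.5 and 78.4 TPM in Egr2MKO. The level had thus come down from its 6-hour value further in Egr2WT than in Egr2MKO. The changes at 1, 6 and 24 hours were 0.51, 1.60 and 0.89 in Egr2WT (adjusted p = 6.4e-04, 7.0e-09 and 8.4e-07) and 0.79, 1.63 and 1.45 in Egr2MKO (adjusted p = 1.2e-05, 4.7e-09 and 7.7e-09, limma). Jak2 was higher in Egr2MKO at 24 hours by 0.76 (adjusted p = 3.2e-06), and the responses differed by 0.56 at that time (95% interval 0.36 to 0.77, adjusted p = 0.0021). It was also higher at 1 hour by 0.47 (adjusted p = 5.9e-04) and at 6 hours by 0.23 (adjusted p = 0.029), the last lost without replicate 1 of either 6-hour group (0.18 and 0.14), with quantile normalization (0.19) and in a model of only the groups compared (adjusted p = 0.28).

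Jak3 at 24 hours was 9.72 and 10.0 TPM in Egr2WT and 15.2 and 17.4 TPM in Egr2MKO (0.67, adjusted p = 0.0015, limma). Its fall from baseline in Egr2WT, -0.36, did not pass (adjusted p = 0.051; it did without basal replicate 2, -0.48, and with a pseudocount of 0.1 TPM, -0.39), nor did the change of 0.21 in Egr2MKO (adjusted p = 0.27) or the difference between them of 0.57 (95% interval 0.18 to 0.97, adjusted p = 0.062, or 0.041 in a model of only the groups compared). Jak1 and Tyk2 changed in neither genotype at any time. A 24-hour difference of Jak1 between the genotypes of -0.12 (adjusted p = 0.017) was lost without any 1 of 3 of the 4 libraries (Egr2WT replicate 1 and both of Egr2MKO, -0.13 to -0.11) and in a model of only the groups compared (adjusted p = 0.052), and it was -0.26 and -0.20 under median-ratio and quantile scaling. The 6-hour difference of Jak1 passed with quantile normalization (-0.14). For Tyk2 the 24-hour difference was 0.15 (adjusted p = 0.13) and passed only without Egr2MKO 24 h replicate 2 (0.24).

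No change of Stat6 after IL-4 passed in either genotype, with group means between 97.1 and 112 TPM, except that the 6-hour change in Egr2MKO did under median-ratio and quantile scaling (each -0.18). A 1-hour difference of 0.16 (adjusted p = 0.039, limma) was lost without any 1 of the 4 libraries (0.13 to 0.19), under median-ratio (0.14) and quantile (0.12) scaling and in a model of only the groups compared (adjusted p = 0.078). Irs2 rose in both genotypes, from 3.34 and 2.99 TPM to 7.12 and 6.75 TPM at 1 hour in Egr2WT (0.93, adjusted p = 6.3e-04) and from 3.27 and 3.97 TPM to 8.47 and 7.40 TPM in Egr2MKO (0.95, adjusted p = 4.2e-04). It was still up at 6 hours, by 0.77 in Egr2WT (adjusted p = 6.0e-04) and 0.67 in Egr2MKO (adjusted p = 0.0013, lost at adjusted p = 0.076 in a model of only the groups compared). At 24 hours it stood at 7.31 and 6.48 TPM in Egr2WT and 5.17 and 4.89 TPM in Egr2MKO, a difference of -0.39 (adjusted p = 0.026) that was lost without any 1 of 3 of the 4 libraries (Egr2WT replicate 1 and both of Egr2MKO, -0.42 to -0.31) and in a model of only the groups compared (adjusted p = 0.062). The 24-hour rise in Egr2MKO, 0.39 (adjusted p = 0.033), was lost without basal replicate 1 or either 24 h library (0.28 to 0.42), with no filter (adjusted p = 0.055), under median-ratio and quantile scaling (each 0.34) and in a model of only the groups compared (adjusted p = 0.092).

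After IL-4, 2, 4 and 5 of the 9 genes changed in Egr2WT at 1, 6 and 24 hours (3.24%, 25.5% and 30.3% of all genes), and 2, 4 and 5 in Egr2MKO (4.13%, 29.8% and 28.0%). The responses of the genotypes differed by limma for 0 of 9 at 1 hour (0.0166% of all genes), 0 at 6 hours (1.10%) and 3 at 24 hours (12.6%), with 1 gene at an unadjusted p under 0.05 at each of the first 2 times. The total of 3 became 6 without Egr2MKO 6 h replicate 1, where Il4ra at 6 hours (0.41) and Jak3 (0.57) and Irs2 (-0.54) at 24 hours were added. It became 5 without Egr2MKO 6 h replicate 2, again with Jak3 and Irs2, and 5 under median-ratio scaling with Irs2 (-0.64) and Stat6 (-0.23). The comparisons of levels and of responses at 24 hours share the treated libraries. The neutrophil and progenitor genes summed to between 64.9 and 67.7 TPM in basal Egr2WT and between 40.9 and 45.7 TPM in basal Egr2MKO, and after 24 hours to between 20.1 and 23.0 TPM and between 12.7 and 17.5 TPM. Their part in these differences was not tested.

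**Figure D4:**
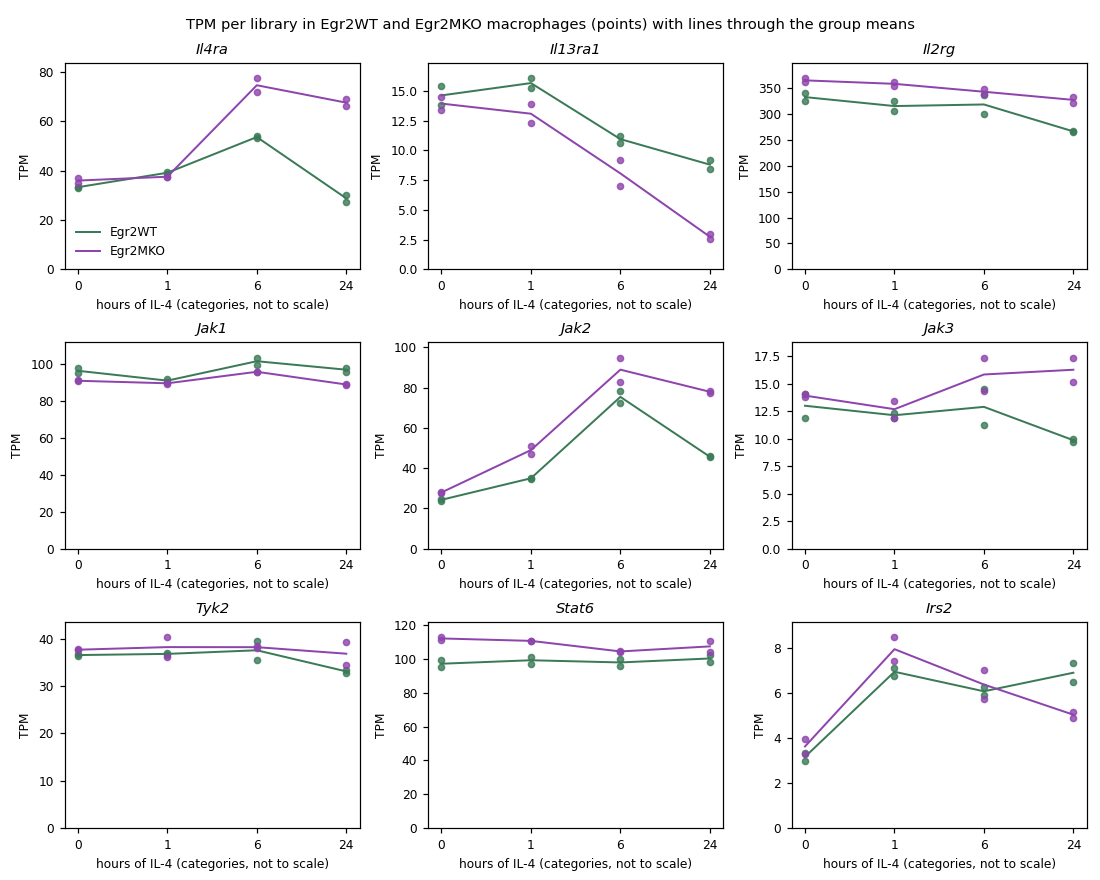
TPM of the signalling genes in each Egr2WT and Egr2MKO library at 0, 1, 6 and 24 hours of IL-4, with lines through the means of 2 libraries. At 24 hours Il4ra and Jak2 are higher in Egr2MKO (69.0 and 66.2, and 77.5 and 78.4 TPM) and Il13ra1 is lower (2.94 and 2.52 TPM).

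In F1 cells both parental alleles share 1 nucleus, so for genes off the X chromosome a difference between them measures variation linked to the gene itself. The values are allele-weighted expression on a scale of the authors and not TPM, and their depth is unknown. For the cross with SPRET, the listed length of 99.3% of genes was their whole span. For Jak2 this was 61277 bases, against 5028 bases for the strain values. Allele and strain values may therefore not rest on the same reads, and the part of this in their differences was not tested. In the cross of C57 with SPRET, 9 of the 10 genes could be tested, with Irs1 too low. By limma, 0 of 9 genes differed between the alleles under basal conditions (3 at an unadjusted p under 0.05; 15.2% of all genes passed), 0 after 24 hours of IL-4 (4 unadjusted; 8.06%), and 0 in the change with IL-4 (0 unadjusted and 0% of all genes).

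For Il4ra the C57 allele was 31.2 and 28.1 and the SPRET allele 27.5 and 28.1 in basal F1 cells. After IL-4 the C57 allele was 15.3 and 13.8 and the SPRET allele 11.9 and 8.95. The alleles were close at baseline, and the SPRET allele was the lower in both treated libraries. The C57 minus SPRET log2 difference was 0.09 at baseline (95% interval -0.19 to 0.37, adjusted p = 0.61, limma) and 0.46 after IL-4 (95% interval 0.18 to 0.74, adjusted p = 0.076). The parental difference at baseline was -1.14 in the 5 strains and -0.07 in the time course. It has another listed gene length and is given with no test of the pair.

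Jak2 had the SPRET allele above the C57 allele in every F1 library, at 8.99 and 8.64 against 7.07 and 7.04 at baseline and 15.5 and 14.3 against 11.8 and 11.2 after IL-4. The difference, C57 minus SPRET, was -0.28 (95% interval -0.53 to -0.04, adjusted p = 0.12, limma) and -0.35 (95% interval -0.59 to -0.10, adjusted p = 0.096). Parental basal differences were -1.20 and -1.63, outside both intervals, but with another listed gene length and no test of the pair. Il13ra1 and Il2rg are X-linked, and in female cells 1 of the X chromosomes is silenced. Their allele values therefore cannot separate uneven silencing from variation linked to the gene. Il13ra1 stood at 4.06 and 3.68 for C57 against 3.34 and 2.77 for SPRET at baseline, with all 4 allele values between 0.402 and 0.636 after IL-4. Il2rg was 260 and 254 for C57 and 202 and 209 for SPRET at baseline (0.33, adjusted p = 0.1). Jak1, Jak3, Tyk2, Stat6 and Irs2 had log2 differences between -0.29 and 0.42, none past the threshold. In the cross of C57 with NOD only Tyk2 had values other than 0, and its basal values were 30.4 and 42.0 for C57 and 28.4 and 47.4 for NOD (-0.04, adjusted p = 0.98, limma). Of all 5229 genes tested in that cross, 0 passed at baseline, 0 after IL-4 and 0 in the change. The Tyk2 result therefore does not show that its alleles were alike. The other 9 genes are listed at 0 there, including Stat6, so its low level in NOD could not be followed by allele.

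**Figure D5:**
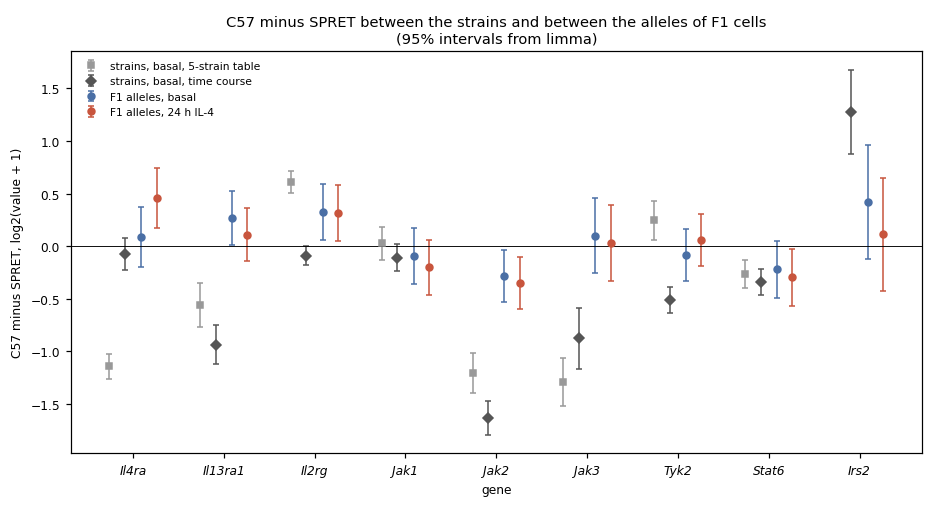
C57 minus SPRET difference in log2(value + 1) for each tested gene, with 95% intervals from limma, between the strains at baseline in the 5-strain table (squares) and the time course (diamonds) and between the alleles of F1 cells, basal and after 24 hours of IL-4 (circles). For Jak2 the allele differences (-0.28 and -0.35) lie nearer to 0 than the strain differences (-1.20 and -1.63), and for Il4ra they are 0.09 and 0.46. Strain and allele values have different listed gene lengths, so their differences are set side by side only.

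Lists of known roles gave the neighbouring genes of the pathway, and at 24 hours some of these changed by more than 2-fold in the 5 strains. Of 8 SOCS and CIS inhibitors, C57 and BALB had 4 that rose each, NOD 3, PWK 5 and SPRET 6, and 1 fell, in SPRET. Beside these counts stand the shares of all genes tested that changed in either direction, 35.5%, 34.2%, 34.3%, 24.7% and 44.4%, and the NOD count is near its share. The median change of these 8 inhibitors was 0.45, 0.23, 0.22, 0.35 and 0.44 in the order C57, BALB, NOD, PWK, SPRET, beside -0.04, -0.11, 0.12, 0.08 and 0.11 for all genes. Cish, a feedback inhibitor, rose in all 5 strains by log2 changes of 3.53, 3.32, 1.04, 2.81 and 3.69 in C57, BALB, NOD, PWK and SPRET. In NOD, Cish went from 1.67, 1.97 and 2.04 TPM to 4.97, 5.08 and 4.76 TPM, and in C57 from 1.86, 2.75 and 1.87 TPM to 36.2, 34.1 and 35.6 TPM. The NOD response of Cish was lower than that of C57 by -2.49 (adjusted p = 5.7e-13, limma).

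Socs1, an inhibitor of Janus kinases, went from 1.88, 3.16 and 1.47 TPM to 22.4, 21.4 and 23.2 TPM in C57 and from 0.342, 0.28 and 0.216 TPM to 73.6, 64.8 and 59.0 TPM in SPRET. In NOD it was 3.57, 4.59 and 2.97 TPM before and 2.33, 3.75 and 3.15 TPM after IL-4. The NOD groups overlapped and the Socs1 change of -0.21 did not pass (adjusted p = 0.44, limma), with a response lower than that of C57 by -3.12 (adjusted p = 7.7e-09). In the time course Socs1 was 1.74 and 4.79 TPM at baseline and 155 and 220 TPM at 1 hour in C57, and 22.1 and 34.9 TPM at 24 hours. The 1-hour level was the highest of the course in SPRET too, at 196 and 214 TPM. At 24 hours in Egr2MKO, Cish was lower than in Egr2WT by -1.12 (adjusted p = 1.5e-06), whereas Socs1 was higher by 0.78 (adjusted p = 0.0031). The response of Cish differed between the genotypes by -0.71 (adjusted p = 0.0033), while that of Socs1, 0.62, did not pass (adjusted p = 0.12).

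The other lists are given by their counts at 24 hours, to be read against those same shares of all genes and, in NOD, against a median of all genes of 0.12 that moves by -0.14 under median-ratio scaling. Of 13 tested receptor chains that use the same kinases, 7 rose and 2 fell in C57, 6 and 4 did in BALB, 9 and 0 in NOD, 5 and 0 in PWK, and 5 and 5 in SPRET. Csf2rb, the shared beta chain of the GM-CSF, IL-3 and IL-5 receptors, rose in all 5 strains (1.10, 0.80, 0.83, 1.07 and 1.18), and so did Il6st, the signal chain of the IL-6 family (1.71, 0.91, 1.07, 1.96 and 1.89). Of 6 other STAT genes, 1 rose and 2 fell in C57, 1 and 4 did in BALB, 3 and 0 in NOD, 1 and 1 in PWK, and 2 and 1 in SPRET. Stat4, the factor of IL-12 signalling, changed by -0.43, -0.37, -0.12 (adjusted p = 0.5 in NOD, limma), -0.92 and -1.04. Of 15 genes of the IRS and PI3-kinase branch, 1 rose and 5 fell in C57, 1 and 6 did in BALB, 9 and 0 in NOD, 3 and 2 in PWK, and 5 and 4 in SPRET. Of 5 STAT6 cofactors, 1 fell in C57 and 1 in BALB, and 4 rose in NOD, 3 in PWK and 1 in SPRET. Of 10 phosphatases and PIAS proteins, which limit STAT signalling, 1 rose and 5 fell in C57, 0 and 4 did in BALB, 2 and 0 in NOD, 0 and 2 in PWK, and 1 and 4 in SPRET. The cytokine genes Il4 and Il13 and the decoy chain Il13ra2 reached no more than 0.261 TPM and were not tested.

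For the 3 signalling genes with the widest range over the 10 strain and treatment means, the genes with the most alike pattern were sought among all other tested genes, as a description over means that share libraries. Jak3 was most like Macrod1, Eno1b and Kctd17 (Pearson r = 0.99, 0.99 and 0.98), and Jak2 most like Sae1, Pus7 and Pa2g4 (r = 0.99, 0.98 and 0.98). Il4ra was most like Lbp, Toporsos and Pnpla2 (r = 0.98, 0.95 and 0.95).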

How the data were processed

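RNA-seq tables of 69 mouse BMDM libraries were analysed. According to the methods, the authors mapped reads with STAR to the genome of each strain, shifted positions to mm10 with MMARGE and quantified genes with HOMER, and the deposited values are TPM per library. The deposited log2 fold change and p-value columns, made by the authors with DESeq2, were not used. The deposited F1 allele values, read as a score without a depth, were made by scaling expression with each allele's share of the reads that cover a variant, and with a factor of 10. Their limits follow from this: a gene with no informative read is listed at 0. TPM keeps no count per gene, so no counting interval was computed and precision comes from the libraries of a group. The table of human macrophages was not analysed here.

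Expression was taken as log2(TPM + 1), and fold changes on this scale understate those of low genes. It was fitted with limma 3.58.1 in R 4.3.3, with 1 model per table, a mean per group and an empirical Bayes trend. Genes with at least 1 TPM in 2 libraries were tested (11907, 12088 and 12079), and adjusted p-values (Benjamini-Hochberg, two-sided) run over all of them, with a threshold of 0.05. A response difference is an interaction contrast. For F1 cells, the log2 difference of the alleles plus 1 was tested per library. The steps were also run on simulated data with independent normal noise. The outcome is not given here, and nothing is concluded from it. Alternatives were another pseudocount, no filter, median-ratio and quantile scaling, only the groups compared, a replicate block and leaving out each library.

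All 10 signalling genes are named. Of the other lists, at most 4 genes each past 2-fold in a strain are named, and of response-like genes the 3 with the highest r for the 3 widest-ranging members. The signalling genes and the lists were chosen with earlier results of these data known. Replicate numbers were not used to pair libraries in the main models. Deviations of same-numbered libraries correlated above 0.1 for 2 of 14 pairs in the 5 strains, 6 of 24 in the time course and 0 of 24 in the Egr2 experiment. For differently numbered libraries the counts were 2 of 28, 2 of 24 and 2 of 24. In groups of 2 libraries the deviations mirror each other, so these pairs are not independent and cannot show whether libraries were paired.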

Additional observations from a re-analysis of the deposited data

Results flagged for a closer look

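The following responses to IL-4 differed between strains or genotypes by an interaction contrast in limma, given as log2 differences of the response, and their causes were not tested. Groups held 2 or 3 libraries, and no test of a single library against its group was made.

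Relative to C57 after 24 hours, Il2rg differed in BALB by -0.24 (adjusted p = 0.022) and in NOD by 0.21 (adjusted p = 0.024), and these calls were lost without 5 of 12 libraries in BALB (-0.22 to -0.19) and 4 of 12 in NOD (0.17 to 0.19). Under median-ratio scaling they were -0.15 and -0.03, and the BALB call was also lost with quantile normalization (-0.17) and with only the groups compared. Jak2 differed in BALB by -0.75. In NOD, Jak1 differed by 0.35 and Stat6 by 0.33 (0.12 and 0.10 under median-ratio scaling, where neither passed), and in PWK, Jak1 by 0.42 and Tyk2 by 0.48 (adjusted p = 0.012, lost at 0.43 without basal PWK replicate 2, at 0.32 under median-ratio scaling, at 0.33 with quantile normalization and in a model of only the groups compared). In SPRET, Il4ra differed by -0.89, Il13ra1 by -0.62, Jak1 by 0.60, Jak3 by -0.54 and Tyk2 by 0.33. The Tyk2 call in SPRET (adjusted p = 0.048) was lost without any 1 of 10 of the 12 libraries (0.18 to 0.36), with no filter, a pseudocount of 0.1 TPM or only the groups compared, and under median-ratio (0.15) and quantile (0.18) scaling. The 5 strains shared the same C57 libraries.

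In the time course, the responses of SPRET and C57 differed at 6 hours for Il4ra (-0.76), Il13ra1 (-0.55) and Jak1 (0.44), and at 24 hours for Il4ra (-0.73), Il13ra1 (-0.50) and Irs2 (1.02). The 24-hour response differences of Jak1, Jak3 and Tyk2, called for SPRET in the 5-strain experiment, did not pass there. Between Egr2MKO and Egr2WT the responses differed at 24 hours for Il4ra (1.10), Il13ra1 (-1.33) and Jak2 (0.56), and these 3 calls held without each library in turn.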

How the results depend on the processing

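Leaving out each library in turn gave counts of 6 to 10 rises and 7 to 8 falls in the 5 strains (8 and 8 with all), 22 to 23 basal differences (23) and 9 to 13 response differences (12). In the time course it gave 11 to 15 rises (12), 12 to 14 falls (13) and 12 to 16 differences of SPRET from C57 (12), and in the Egr2 experiment 14 to 16 rises (15), 5 to 8 falls (7), 11 to 15 differences of Egr2MKO from Egr2WT (14) and 3 to 6 response differences (3). The last was 6 and 5 without Egr2MKO 6 h replicates 1 and 2. For F1 alleles the count stayed at 0. Of 1956 single values, 1855 kept their call, 78 lost it, 23 gained one and 0 reversed. With only the groups compared in the model, 7 response differences from C57, 4 falls in the Egr2 experiment and 6 differences between the genotypes were called, and 28 of 311 values lost their call. Median-ratio scaling gave 5 response differences between the genotypes and moved the median of all genes by 0.30 and 0.16 in basal NOD and PWK, and by -0.18, -0.14 and -0.16 in the responses of NOD, PWK and SPRET relative to C57. It reversed 7 values: Il2rg in NOD after IL-4 (-0.042), at baseline (0.13) and in its response (-0.027), basal Jak2 (0.066) and Tyk2 (0.15) in NOD, basal Jak1 in PWK (0.16) and the Il2rg response in SPRET (-0.18). Quantile normalization reversed basal Tyk2 in NOD (0.047). The cause was not tested. Without a filter, or with a pseudocount of 0.1 or 5 TPM, no value reversed. A replicate block changed 4 of 207 calls. It ended Il13ra1 at 6 hours in Egr2WT (-0.39, adjusted p = 0.055) and Il2rg at 24 hours in Egr2MKO (-0.16, adjusted p = 0.059), and gave calls for the Il2rg response of PWK (0.19, adjusted p = 0.036) and Irs2 in C57 at 24 hours (0.44, adjusted p = 0.035), all by limma. It was not run for levels between strains or genotypes, nor for the response differences of the time course. Over all genes of the C57 and SPRET F1, the calls after IL-4 went from 988 to 0 with a pseudocount of 0.1, without a filter and with the replicate block. With 2 or 3 libraries a group, small differences were not detectable, and a call that did not pass does not show that levels were equal.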
